A study of Rattus norvegicus with 23 samples.

Results

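The transcripts of 9 transcription factors of the myeloid lineage were followed in microglia from neonatal rats. Spi1 (the gene of PU.1), Irf8, Sall1, Mef2a, Mef2c, Runx1, Cebpa, Cebpb and Maf were taken by name from the 20301 genes of the deposited log2 table, and all 9 were present. Wistar rat pups were treated at 7 days of age, and 24 h after the operation their microglia were sorted magnetically by CD11b/c. The Sham group (n = 6) had the sham procedure, with no injection listed. The LPS group (n = 5) received lipopolysaccharide, a bacterial wall component that triggers inflammation, at 0.1 mg/kg i.p. and the sham procedure. The NaCl/HI group (n = 6) was injected with 0.9% NaCl and underwent hypoxia-ischemia (HI), that is ligation of a carotid artery followed by 50 min at 8% oxygen. The LPS/HI group (n = 6) received the same LPS dose 4 h before HI. A sample was 1 whole brain in the Sham and LPS groups and 2 pooled ipsilateral hemispheres, from 2 pups, after HI. HI, the tissue taken and pooling therefore cannot be told apart wherever a group with HI is compared with a group without.

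PU.1 is the ETS factor without which microglia and other macrophages do not form, and IRF8 partners with it on many shared sites. SALL1, a zinc finger factor that depends on TGF-beta signalling, and the MEF2 factors keep microglia in their surveying state, whereas RUNX1 acts earlier in their development. The C/EBP factors drive granulocyte and macrophage programmes, with C/EBP-beta rising in inflammation, and c-MAF is typical of mature and border-associated macrophages.

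Values are rlog values, log2-scaled counts in which the variance of weak genes is damped. Differences are taken between samples of the same gene or list. Levels of different genes or lists do not rank their abundance, because values are not scaled to transcript length. A gene passed where limma gave an adjusted p (Benjamini-Hochberg over all 20301 genes) under 0.05. The authors removed 3 surrogate variables before deposit, which lowers the spread within groups, so p-values can be too low. Read depth per sample is unknown, and the library medians lay between 7.75 and 7.82. Of 11 measured microglia markers, only Siglech lay below 3 on the log2 scale, and the mean of the markers was 12.2 to 12.6 per sample. Border-associated macrophage markers averaged 10.6 to 11.3, monocyte markers 9.12 to 10.1 and neutrophil markers 5.70 to 7.13. Genes used as markers of other myeloid cells were thus measured as well, and which cells their transcripts came from was not tested. In such bulk samples, fewer cells of a type and less RNA per cell cannot be told apart.

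The promoters of members that changed with LPS are shown because they place each transcript beside the sequence it starts from. Promoters of 6 of the 9 members were taken from a RefSeq (GRCr8) promoter table, and those of Spi1, Sall1 and Mef2c were not analysed here. The 250 bases before the transcription start are printed 5′ to 3′ on the gene strand, for Cebpb (chr3:176816755-176817004, + strand, 80.0% G and C), Irf8 (chr19:65699034-65699283, + strand, 70.4%) and Mef2a (chr1:130392163-130392412, − strand, 59.6%). Capitals mark matches to TATAAA, GGGANNNNCC (NF-kB), GAGGAAG (PU.1 and other ETS factors) and CTANNNNTAG (MEF2), searched on both strands.
Cebpb: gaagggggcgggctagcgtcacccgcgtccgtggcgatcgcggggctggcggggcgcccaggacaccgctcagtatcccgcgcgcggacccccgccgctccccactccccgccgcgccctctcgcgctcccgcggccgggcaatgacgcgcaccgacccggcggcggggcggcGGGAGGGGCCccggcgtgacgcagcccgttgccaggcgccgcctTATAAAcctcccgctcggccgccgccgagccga
Irf8: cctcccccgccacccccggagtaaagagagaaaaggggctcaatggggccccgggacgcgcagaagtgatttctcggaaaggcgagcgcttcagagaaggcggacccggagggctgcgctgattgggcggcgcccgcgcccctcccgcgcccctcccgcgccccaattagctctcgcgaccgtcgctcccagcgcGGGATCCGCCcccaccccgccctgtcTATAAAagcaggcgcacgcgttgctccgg
Mef2a: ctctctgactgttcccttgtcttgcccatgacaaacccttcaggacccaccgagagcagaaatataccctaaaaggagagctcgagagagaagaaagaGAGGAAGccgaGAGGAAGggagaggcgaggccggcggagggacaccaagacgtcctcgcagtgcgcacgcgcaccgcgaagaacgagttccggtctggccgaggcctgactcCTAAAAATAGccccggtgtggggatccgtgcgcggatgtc
Positions count back from the start. Cebpb and Irf8 each had TATAAA, the core of a TATA box, near the start, with its first base at -33 and -29, and so had Cebpa at -35, whereas the 3 other members had none. TATAAA occurred in 13.1% of the 27457 promoters of this length. Cebpb and Irf8 also matched the NF-kB pattern, at -77 and -55, as did Maf at -162 on the opposite strand, and 16.8% of all promoters matched it. Cebpb held the 5-base core TGACG of CREB and ATF factors 3 times, at -234 on the opposite strand and at -107 and -61, left in lower case here (19% of all promoters hold it). Mef2a had a MEF2 match, CTAAAAATAG, at -40, in its own family's pattern (3.43% of all promoters), and GAGGAAG at -152 and -141 (10.1%). The C/EBP pattern TTNNGCAA (9.2%), the IRF pattern GAAANNGAAA (3.29%) and the Runx pattern TGTGGT (14.1%) had no match in the 6 promoters, and Runx1 matched none of the 8 patterns.

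LPS alone moved the 9 factors in both directions. Cebpb, Spi1 and Irf8 rose against Sham, Sall1 and Mef2a fell, and Mef2c, Runx1, Cebpa and Maf did not pass the test. The 5 of 9 that passed compare with 17.8% of all genes, the 3 that rose with 10.2% and the 2 that fell with 7.56%. The samples of LPS and Sham did not overlap for 3 of 9 members, Irf8, Mef2a and Cebpb, and for 13.9% of all genes. The median difference was 0.10 over the members and -0.01 over all genes. Spi1, Sall1, Mef2a and Cebpb passed in all 10 other settings with all samples and with each of the 23 samples left out in turn.

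**Figure D1:**
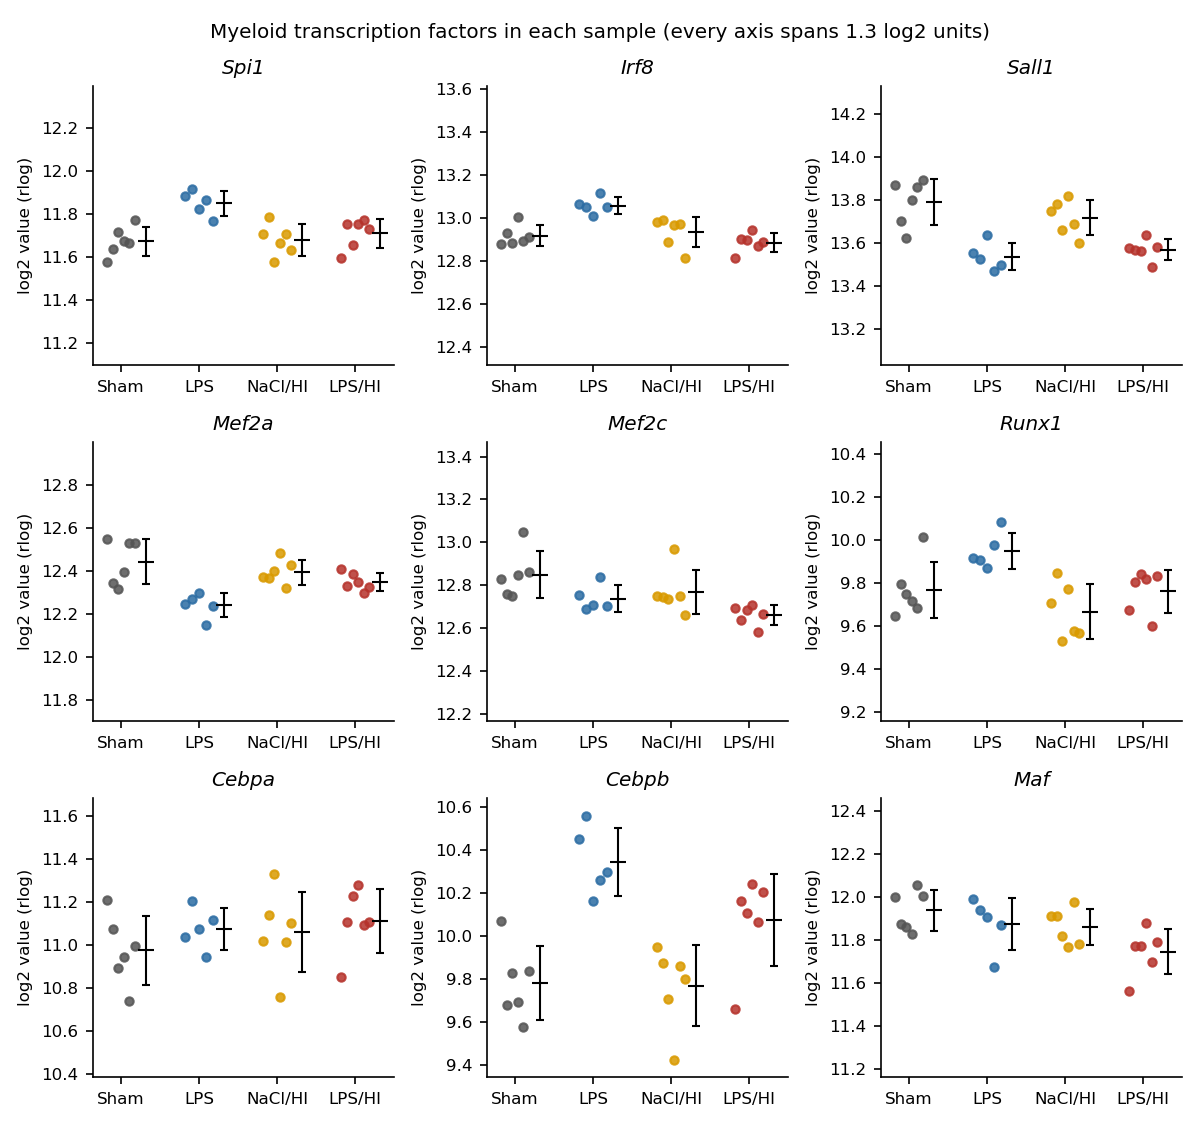
Log2 value (rlog, vertical axis, spanning 1.3 log2 units in each panel) of the 9 factors in every sample of the 4 groups; points are samples, and the black bars beside them give the mean and SD. The Cebpb values of all 5 LPS samples (10.16 to 10.56) lay above all Sham samples, and those of Sall1 (13.47 to 13.63) reached only the lowest of the Sham samples (13.62).

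Cebpb, which codes for the inflammatory C/EBP factor, had the largest difference of the 9 in LPS against Sham. It was 10.45, 10.56, 10.16, 10.26 and 10.30 in the 5 LPS samples, against 9.58 to 10.07 (median 9.76) in the 6 Sham samples. NaCl/HI samples ran from 9.42 to 9.95 (median 9.83) and LPS/HI samples from 9.66 to 10.24 (median 10.14). All LPS samples thus exceeded all Sham and NaCl/HI samples, while LPS/HI lay between and overlapped with the other 3 groups. The mean rose from 9.78 ± 0.17 (SD, n = 6) in Sham to 10.35 ± 0.16 (n = 5) in LPS, a log2 difference of 0.57 (SE 0.11, 1.48-fold, adjusted p = 0.00109). The difference was 0.53 within the first 12 libraries and 0.58 within libraries 13 to 23, the 2 runs of library numbers. LPS/HI, at 10.07 ± 0.21, was 0.29 above Sham (95% interval 0.08 to 0.51, adjusted p = 0.0761) and did not pass. That comparison leaned on LPS/HI replicate 1, the lowest of its group, without which the adjusted p was 0.0143, and it passed without Sham replicate 1 or NaCl/HI replicate 4 as well (0.0493 each). The difference was 0.12 in the first 12 libraries and 0.47 in the rest. Ordered by mean, Cebpb stood at NaCl/HI (9.77), Sham, LPS/HI and LPS, and no step between neighbours passed. Its SD over the 23 samples exceeded that of 96.8% of all genes, against 25.9% to 75.2% for the other members.

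Cebpa, the C/EBP factor of early granulocyte and monocyte commitment, showed no passing difference in any comparison. It ranged from 10.74 to 11.21 (median 10.97) in Sham, and the LPS samples had 11.04, 11.21, 11.07, 10.94 and 11.12. NaCl/HI spanned 10.76 to 11.33 (median 11.06) and LPS/HI 10.85 to 11.28 (median 11.11). All 4 groups overlapped. The difference was 0.10 for LPS against Sham (95% interval -0.09 to 0.29, adjusted p = 0.489) and 0.13 for LPS/HI against Sham (-0.05 to 0.32, adjusted p = 0.331).

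Monocyte and neutrophil markers are given beside these C/EBP values because both cell types express the factors. In LPS against Sham 2 of 9 monocyte markers rose (Plac8 by 1.17 and Itgal by 0.55) and 2 of 12 neutrophil markers fell (Ngp by 1.07 and Camp by 0.71), where 10.2% of all genes rose and 7.56% fell. For LPS/HI against Sham, 3 of 9 monocyte and 5 of 12 neutrophil markers rose, among them S100a9 by 1.18 and S100a8 by 1.11, where 5.3% of all genes rose. The neutrophil count leaned on single samples, with 1 left when replicate 5 or 6 of Sham or 3 or 4 of LPS/HI was omitted, 2 when replicate 2 of either group was, and 3 when Sham replicate 1 or 4 was. In LPS against Sham 1 fell instead of 2 when any of 11 samples was omitted. The mean of the neutrophil markers was 5.94 to 6.42 in Sham, 5.70 to 6.22 in LPS, 5.74 to 6.40 in NaCl/HI and 6.15 to 7.13 in LPS/HI, with the neutrophil granule genes Elane and Mpo below 3 in every group. Monocyte markers averaged 9.12 to 9.58 in Sham, 9.48 to 9.80 in LPS, 9.34 to 10.07 in NaCl/HI and 9.47 to 10.12 in LPS/HI. The part of such cells in the C/EBP values was not tested.

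Spi1 and Irf8, the lineage pair, rose modestly with LPS. Spi1 was 11.89, 11.92, 11.82, 11.87 and 11.77 in the LPS samples, against 11.58 to 11.77 (median 11.67) in Sham, so that only the lowest LPS sample reached the highest Sham sample. Irf8 was 13.06, 13.05, 13.01, 13.11 and 13.05 in LPS, above all 6 Sham samples (12.88 to 13.01, median 12.90). Spi1 rose by 0.18 (SE 0.05, 1.13-fold, adjusted p = 0.0112) and Irf8 by 0.14 (SE 0.04, 1.10-fold, adjusted p = 0.0188). The Irf8 call was lost without LPS replicate 4, its highest sample (adjusted p = 0.0569), with only the 2 groups in the fit (0.0805), and after quantile normalization (0.0836). Within the first 12 and the later libraries the differences were 0.23 and 0.11 for Spi1, and 0.14 in both for Irf8.

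In the HI groups neither gene passed against Sham. Spi1 ran from 11.58 to 11.79 (median 11.69) in NaCl/HI and from 11.60 to 11.77 (median 11.74) in LPS/HI, and both groups overlapped with Sham throughout. Irf8 ran from 12.81 to 12.99 in NaCl/HI and from 12.81 to 12.94 (median 12.89) in LPS/HI, where every sample lay below every LPS sample. LPS/HI against LPS was the comparison in which Irf8 alone of the 9 passed, and 1.94% of all genes passed it, with 0.719% of all genes lower. After median centring, 404 genes were lower and 198 higher in it, where 146 and 248 had been. There Irf8 fell by 0.17 (SE 0.04, adjusted p = 0.0292), and its linear level fell by 11.3%. That call ended when LPS replicate 1, 2, 4 or 5 was left out, and likewise for replicate 1, 2 or 5 of LPS/HI, with adjusted p between 0.0536 and 0.111, and after quantile normalization (0.0528). A fit of only the 2 groups called 0 of all 20301 genes and so says nothing of Irf8. Irf8 and Runx1 were the 2 of 9 members whose LPS and LPS/HI samples did not overlap, against 4.17% of all genes. Spi1 was 0.14 lower in LPS/HI than in LPS (95% interval -0.24 to -0.04, adjusted p = 0.118) and did not pass, except after median centring (0.0336).

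Whether the LPS effect itself differed between sham-operated and HI pups was tested as an interaction, the LPS/HI minus NaCl/HI difference less the LPS minus Sham difference. No injection is listed for Sham pups, so that NaCl is part of only 1 of its arms. None of the 9 members passed, against 1.08% of all genes, and 3 of 9 had an unadjusted p under 0.05 (15.1% of all genes). These were Irf8 at -0.19 (95% interval -0.30 to -0.08, adjusted p = 0.0971), Spi1 at -0.15 (-0.28 to -0.01, adjusted p = 0.274) and Mef2a at 0.16 (0.02 to 0.30, adjusted p = 0.248). For Cebpb the interaction was -0.26 (-0.57 to 0.05, adjusted p = 0.433).

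Sall1, the factor of microglial identity, fell in both LPS groups. It was 13.55, 13.52, 13.63, 13.47 and 13.50 in the LPS samples and 13.49 to 13.64 (median 13.57) in LPS/HI. Sham samples ran from 13.62 to 13.89 (median 13.83) and NaCl/HI samples from 13.60 to 13.82 (median 13.72). A single LPS sample and a single LPS/HI sample reached into the Sham range, LPS and LPS/HI overlapped with each other, and NaCl/HI overlapped with all 3 other groups. Sall1 fell by 0.25 in LPS against Sham (SE 0.05, adjusted p = 0.00232) and by 0.22 in LPS/HI against Sham (SE 0.05, adjusted p = 0.0127). On the linear scale it fell by 16.2% in LPS, whereas in LPS/HI it fell by 14.2%. Both calls held in all 10 other settings and with each sample left out. Within the first 12 and the later libraries the LPS difference was -0.16 and -0.37, and that of LPS/HI -0.16 and -0.28. Between LPS and LPS/HI the difference was 0.03 (95% interval -0.08 to 0.14, adjusted p = 0.844). LPS/HI was 0.15 below NaCl/HI (95% interval -0.25 to -0.04, adjusted p = 0.26) without passing. Ordered by mean the groups ran LPS, LPS/HI, NaCl/HI and Sham, and no step between neighbours passed.

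Mef2a and Mef2c code for MEF2 factors that bind the same motif, and they passed in different comparisons. Mef2a was 12.25, 12.27, 12.30, 12.15 and 12.24 in LPS, below all Sham samples (12.31 to 12.55, median 12.46), and fell by 0.20 (SE 0.05, adjusted p = 0.00528), while its linear level fell by 13.1%. Within the first 12 and the later libraries this was -0.13 and -0.29. LPS/HI samples had 12.30 to 12.41 (median 12.34), 0.09 below Sham (95% interval -0.19 to 0.00, adjusted p = 0.189), and did not pass.

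Mef2c was 12.58 to 12.71 (median 12.68) in LPS/HI, below all Sham samples, which ran from 12.75 to 13.05 (median 12.84). It fell by 0.19 in LPS/HI against Sham (SE 0.05, adjusted p = 0.031), and its linear level fell by 12.2%. With Sall1 it made 2 of 9 members that passed there, both lower, against 8.77% of all genes in either direction and 3.48% that were lower. Mef2c was the only 1 of 9 members without overlap in this comparison (6.37% of all genes). Leaving out Sham replicate 1, 4, 5 or 6, or LPS/HI replicate 2, 3 or 5, ended the call, with adjusted p between 0.0507 and 0.0797, and so did a fit of only the 2 groups (0.0660). Its difference was -0.11 in the first 12 libraries and -0.27 in the later ones. In LPS alone Mef2c was 12.76, 12.69, 12.71, 12.84 and 12.70, with 0.11 less than Sham on average (95% interval -0.23 to 0.00, adjusted p = 0.17), and it passed there only after quantile normalization (0.0291). The difference of Mef2c between LPS and LPS/HI was -0.08 (95% interval -0.19 to 0.04, adjusted p = 0.565), so a difference between the groups was not shown for it, nor for Mef2a (0.11, 95% interval 0.01 to 0.21, adjusted p = 0.253).

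Neurons and endothelial cells express MEF2 genes too, so their markers are given here. In LPS 5 of 10 neuron markers fell against Sham, where 7.56% of all genes fell, and their mean per sample had a median of 7.09 in LPS and 7.33 in Sham. The count was 2 without Sham replicate 1 or 2, LPS replicate 1, 2 or 4 or LPS/HI replicate 2, and 3 without Sham replicate 3 or 6, LPS replicate 3 or NaCl/HI replicate 1. In LPS/HI that median was 7.19, and 2 of 10 neuron markers fell, where 3.48% of all genes did. That count was 1 without any single Sham sample or any LPS/HI sample but replicate 3. Endothelial markers, with a mean of 10.4 to 10.7 in LPS and 10.6 to 10.9 in Sham, had 4 of 11 lower and 1 higher in LPS, and 1 higher in LPS/HI. The 4 became 1 without Sham replicate 3 or 4 or LPS replicate 2, 4 or 5. Of the remaining marker lists, 2 of 8 astrocyte markers and 1 of 7 T and B cell markers rose in LPS (10.2% of all genes) and 1 of each in LPS/HI (5.3%), and none of 8 oligodendrocyte lineage markers passed in either. With 1 sample left out the astrocyte count ranged from 0 to 3 in LPS, with 0 without LPS replicate 2, and each of the single calls in LPS/HI was lost without some samples. The part of these cells in the MEF2 values was not tested.

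Runx1 and Maf passed in neither comparison with Sham. Runx1, which acts in early macrophage progenitors, had 9.92, 9.91, 9.87, 9.98 and 10.09 in LPS and 9.65 to 10.01 (median 9.73) in Sham. It was 0.18 higher on average (95% interval 0.04 to 0.33, adjusted p = 0.0746), with overlap through Sham replicate 6, and without that sample the adjusted p was 0.0214. NaCl/HI ran from 9.53 to 9.85 (median 9.64) and LPS/HI from 9.60 to 9.84 (median 9.81), both below every LPS sample. LPS/HI was 0.19 below LPS (95% interval -0.33 to -0.04, adjusted p = 0.172).

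Maf had 11.99, 11.94, 11.91, 11.67 and 11.87 in LPS, with LPS replicate 4 the lowest, and 11.83 to 12.06 (median 11.94) in Sham. LPS/HI samples ran from 11.56 to 11.88 (median 11.77). Maf was 0.19 lower in LPS/HI than in Sham (95% interval -0.32 to -0.07, adjusted p = 0.0509), just short of the threshold, and passed when Sham replicate 3 or 4, LPS replicate 4, NaCl/HI replicate 4 or LPS/HI replicate 4 was left out (0.0339 to 0.0489). It also passed with 19 degrees of freedom (0.0236), robust variances (0.0496), the weakest 25% of genes filtered out (0.0432) and median centring (0.0379), and not in the 6 other settings. Lyve1, a border-associated macrophage marker, fell by 0.60 in the same comparison, the only 1 of 10 such markers that passed there (2 without Sham replicate 2). Of all genes 8.77% passed there, and 3.48% were lower. The part of these cells in the Maf values was not tested.

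**Figure D2:**
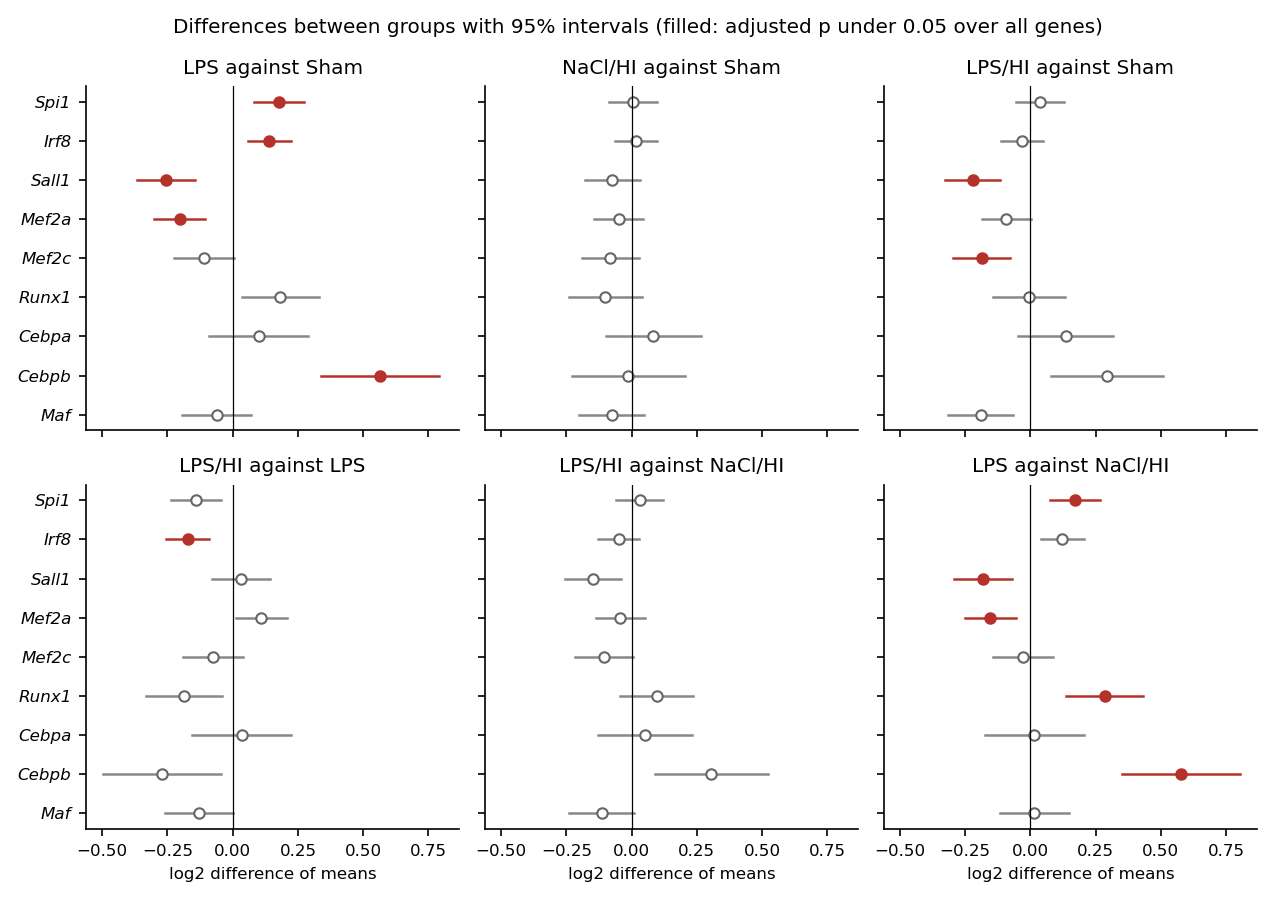
Log2 difference of group means (horizontal axis) with its 95% interval for each of the 9 factors in the 6 comparisons of groups; filled red points have an adjusted p under 0.05 over all genes. In LPS against Sham 5 points are filled, in LPS/HI against Sham 2, in LPS/HI against LPS 1, in LPS against NaCl/HI 5 and in the 2 remaining panels none.

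HI without LPS left no passing difference among the 9 factors. In NaCl/HI against Sham 0 of 9 passed with limma (0.00985% of all genes did), 0 of 9 had an unadjusted p under 0.05 (14.8% of all genes), and 0 of 9 passed an exact Wilcoxon test with the same adjustment, which called 0% of all genes and so says nothing of the members. Without NaCl/HI replicate 4 limma called 556 genes in place of 2, and still 0 of the 9 members. Differences ran from -0.10 (Runx1, 95% interval -0.24 to 0.04) to 0.08 (Cebpa, -0.10 to 0.26), and the smallest adjusted p was 0.479, for Mef2c. The intervals were narrowest for Irf8 (-0.06 to 0.10) and widest for Cebpb (-0.23 to 0.20). LPS before HI against NaCl before HI, the comparison within the ipsilateral hemispheres, also had 0 of 9 passing with limma (0.202% of all genes). The exact Wilcoxon test again called 0% of all genes, members included, and by limma 2 of 9 had an unadjusted p under 0.05 (10.6% of all genes). These were Cebpb, 0.31 higher in LPS/HI (95% interval 0.09 to 0.52, adjusted p = 0.247), and Sall1.

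LPS and NaCl/HI, which differ in the injection, in HI and in the tissue taken, were set side by side as the last pair. Cebpb (0.58, adjusted p = 0.00168), Runx1 (0.28, adjusted p = 0.0135) and Spi1 (0.17, adjusted p = 0.0236) were higher in LPS, and Sall1 (-0.18, adjusted p = 0.0382) and Mef2a (-0.15, adjusted p = 0.0453) lower. These 5 of 9 compare with 8.98% of all genes, 5.32% higher and 3.66% lower. The samples did not overlap for 4 of 9 members, Irf8, Mef2a, Runx1 and Cebpb, against 7.31% of all genes. Of the 5 that passed, a fit of only the 2 groups called 1, Cebpb (494 of all genes). By the same test as the 5, the number of members that passed was 2 without LPS replicate 1, 2 or 4 and 3 without LPS replicate 5, LPS/HI replicate 2 or NaCl/HI replicate 1, 2, 3 or 4. The number of all genes that passed fell too, from 1824 to 1394, 1076 and 1164 without LPS replicate 1, 2 or 4. In the omissions that left 3 members it was 1322 to 1629.

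The 9 factors were then set beside their relatives. Of 26 measured family members and partners, 2 rose and 2 fell in LPS against Sham, with a median difference of -0.03. That is 15.4% of the list, no more than the 17.8% of all genes that passed. Runx3, a relative of Runx1, rose by 0.80 (SE 0.13, 1.74-fold, adjusted p = 0.000213) and Irf7, the interferon-induced IRF, by 0.40 (SE 0.13, adjusted p = 0.0377). Among those that fell was Mafg, a small MAF protein gene, by 0.23 (adjusted p = 0.000546). After LPS/HI only Irf7 (0.54, adjusted p = 0.0128) and Mafg (-0.19, adjusted p = 0.00699) passed, 7.69% of the list beside 8.77% of all genes. None of the relatives of Sall1 and of the MEF2 genes, nor Cebpd, passed in either comparison. With 1 sample omitted the LPS counts ranged from 1 to 3 higher and from 1 to 2 lower, with only 1 higher for any of 8 samples and only 1 lower for any of 7, and LPS/HI had 2 higher without Sham replicate 1 or LPS/HI replicate 1.

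**Figure D3:**
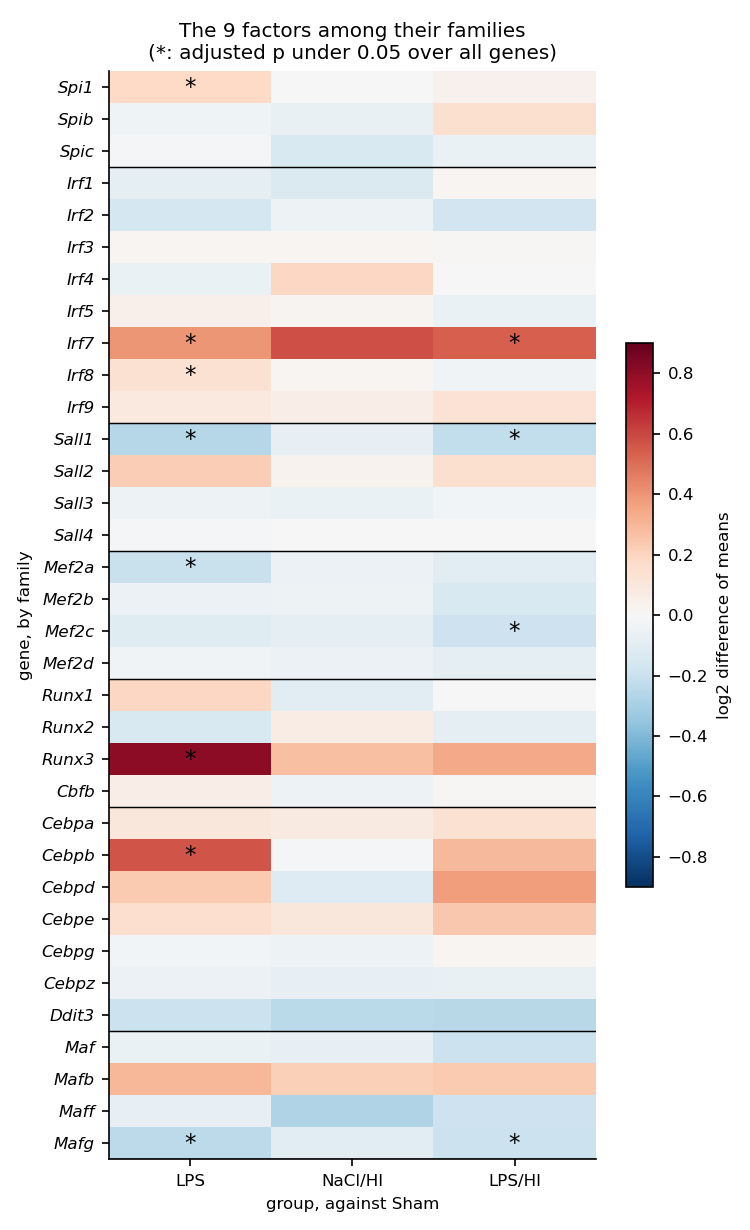
Log2 difference of group means against Sham (colour) for the 9 factors and family members and partners that were measured, by family from ETS at the top to MAF at the bottom; columns are the LPS, NaCl/HI and LPS/HI groups, and asterisks mark an adjusted p under 0.05 over all genes. Runx3 in LPS is the darkest cell (0.80), and no cell of the NaCl/HI column has an asterisk.

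Among 53 other measured myeloid and microglial regulators, 4 rose and 7 fell with LPS against Sham, 20.8% of the list and close to the 17.8% of all genes. Batf (0.50), Bcl6 (0.44), Tfec (0.40) and Nfkb1 (0.14) rose, whereas Egr2 (-0.74), Egr3 (-0.58), Tal1 (-0.31) and Nfil3 (-0.29) had the largest falls. Bcl6 is a repressor of inflammatory genes, and the EGR genes are immediate early genes that respond to growth factors. The number lower was 4 without Sham replicate 5, LPS replicate 2 or LPS replicate 4. In LPS/HI against Sham 4 rose and 5 fell (7.55% and 9.43%, against 5.3% and 3.48% of all genes), with Batf (0.45), Bcl6 (0.34), Egr2 (-0.53) and Egr3 (-0.50) at the extremes, and with 1 sample left out 2 to 5 in each direction passed, the fewest in both directions without LPS/HI replicate 5.

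The inputs to the lineage factors moved in both directions with LPS. Of 25 measured growth factor and TGF-beta genes, 4 rose and 8 fell against Sham (16% and 32%, against 10.2% and 7.56% of all genes), and the median difference was -0.13 against -0.01 over all genes. Those that rose were the cytokine receptor chains Csf2rb (0.51), Csf2ra (0.30) and Csf3r (0.24), and Il34 (0.33), a ligand of the CSF1 receptor. Csf1, the other ligand of that receptor, fell by 0.50 (SE 0.12, adjusted p = 0.00468). Smad7 (-0.34), Tgfbr1 (-0.34) and Tgfb3 (-0.32), all of the TGF-beta pathway, had the next largest falls. Smad7 codes for an inhibitor of that pathway, and the signalling itself was not tested. Only Csf2rb (0.54, adjusted p = 0.00944) passed in LPS/HI against Sham, 4% of the list beside 8.77% of all genes. Besides it, 1 gene was lower without LPS replicate 5 or LPS/HI replicate 4.

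Genes listed as depending on the members were counted next. Of 32 Spi1 and Irf8 targets, 10 rose and 1 fell in LPS against Sham (31.2% and 3.12%, against 10.2% and 7.56% of all genes), with a median of 0.06. Cyba (0.51), Cd14 (0.48), Fes (0.39) and Fcgr3a (0.37), which code for an NADPH oxidase subunit, the LPS co-receptor, a tyrosine kinase and an Fc receptor, rose most, and Bin1 fell by 0.43. Against Sham, LPS/HI had 8 higher (25%, against 5.3% of all genes) and 1 lower, led by Cd14 (0.58) and the oxidase subunit Ncf4 (0.45), with Bin1 at -0.28. That 8 became 4 without LPS/HI replicate 5 and 5 without Sham replicate 2, 3 or 5 or LPS/HI replicate 2, 3 or 4. In the same comparison 5 of 12 neutrophil and 3 of 9 monocyte markers rose, and the part of such cells in the target values was not tested.

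Of 19 measured Sall1 and MEF2 dependent microglial genes, 10 fell and 1 rose in LPS against Sham, with a median of -0.27. The 52.6% that fell compare with 7.56% of all genes. Crybb1 fell by 0.83 (SE 0.12, adjusted p = 6.77e-05), and Gpr34 (-0.42), P2ry13 (-0.42) and P2ry12 (-0.36), all receptors of surveying microglia, followed. Csf3r, which is also in the list of inputs, rose by 0.24. With LPS/HI 2 fell against Sham (10.5%, against 3.48% of all genes), Crybb1 by 0.50 and P2ry13 by 0.31, and the median was -0.10. That count was 1 without Sham replicate 1 or 5 or LPS/HI replicate 2 or 5. This list shares genes with the microglia markers, of which 5 of 11 fell (Gpr34, P2ry12, Sparc and Cx3cr1 among them) and 1 rose (C1qa) in LPS. The 5 became 3 without Sham replicate 1 or 5 or LPS replicate 2, 4 or 5. The markers' mean was 12.4 to 12.6 in Sham and 12.2 to 12.4 in LPS, and the part of a lower share of microglial RNA in the Sall1 and Mef2a values was not tested.

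Of 27 measured Cebpb and Maf targets, 4 rose and 6 fell in LPS against Sham (14.8% and 22.2%, against 10.2% and 7.56% of all genes). Il1b (0.43) and the complement genes C1qc (0.41), C1qa (0.29) and C1qb (0.28) rose. Lyve1 (-0.83), Ccl2 (-0.66), Il10 (-0.65) and Mrc1 (-0.50) had the largest falls. Lyve1 and Mrc1 are also markers of border-associated macrophages, of which 3 of 10 fell and 1 rose. LPS/HI samples differed from Sham in 3 genes, 11.1% of the list beside 8.77% of all genes. Socs3 rose by 0.48, and Lyve1 (-0.60) and Il10 (-0.46) fell. These counts moved with single samples, to 6 higher and 5 lower without LPS/HI replicate 1 and to 4 higher and 5 lower without NaCl/HI replicate 4, and between 0 and 3 higher and 1 and 2 lower without any other sample. No gene of these 6 lists passed in NaCl/HI against Sham, although without NaCl/HI replicate 4 there were 4 Spi1 and Irf8 targets, 3 other regulators and 1 relative higher and 1 Cebpb or Maf target lower, when 556 of all genes passed in place of 2.

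**Figure D4:**
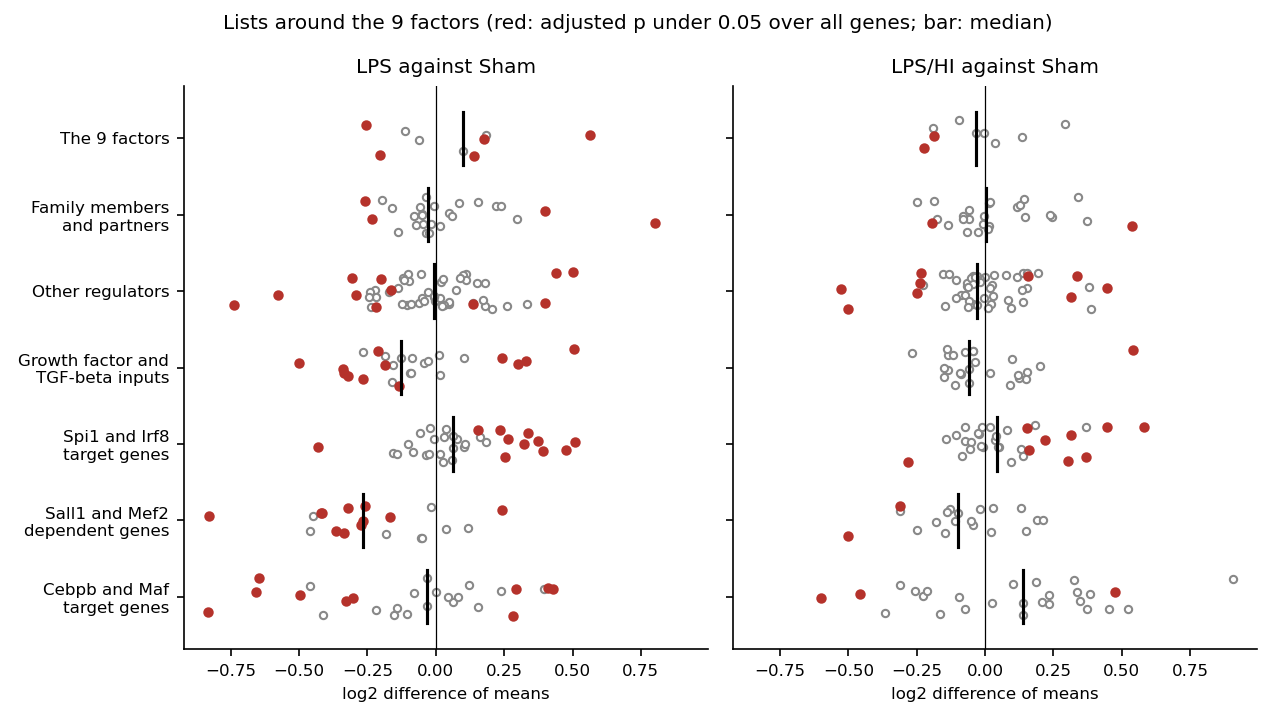
Log2 difference of group means (horizontal axis) for each measured gene of the 9 factors and the 6 lists around them, in LPS against Sham (left) and LPS/HI against Sham (right); red points have an adjusted p under 0.05 over all genes, and black bars are list medians. The bar of the Sall1 and Mef2 dependent genes stands farthest from 0 on the left (-0.27), and at -0.10 on the right.

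The genes whose pattern over the 23 samples was most like each member's were taken from 10065 candidates with an SD above the median, by Pearson's r, as a description that includes the shared group differences. The closest to Cebpb were Tmem249 (r = 0.95), Rbm42 (0.93) and Ehmt2 (0.92), to Spi1 Pak4 (0.93) and, as one of its 3 closest, Crocc (0.89), and to Sall1 Atxn7l1 (0.93), Mrln (0.92) and Rpl19-ps23 (0.92). Mef2a was closest to Cd47 (0.92), Entpd1 (0.90) and LOC102551819 (0.87), and Mef2c to Bmp2k (0.89), with Prkcb (0.86) among its 3 closest. For Runx1 these were Gnao1 (0.86), Fyb1 (0.86) and Dclre1c (0.85), for Irf8 Tspear (0.82), Tifab (0.82) and Naprt (0.82), for Cebpa LOC120101644 (0.84), Slc28a2 (0.80) and LOC686013 (0.78), and for Maf Mir674 (0.77), Ptgdr2 (0.75) and Anks1a (0.71). Among the members themselves, Sall1 and Mef2a had the highest r, 0.82 over all 23 samples and 0.70 after group means were subtracted. Spi1 and Irf8 had 0.72 and 0.49, and Cebpa and Cebpb 0.53 and 0.67. Cebpb and Maf had 0.11 over all samples and 0.60 within groups. The samples share the authors' normalization and the removed variables.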

How the data were processed

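RNA was sequenced from CD11b/c-sorted microglia of Sham (n = 6), LPS (n = 5), NaCl/HI (n = 6) and LPS/HI (n = 6) samples, grouped by their titles, which name biological replicates. The authors quantified reads with kallisto 0.48.0 on mRatBN7.2, left out genes with few counts, applied the rlog of DESeq2 and removed 3 surrogate variables, and deposited the resulting log2 values of 20301 genes. No counts or library sizes were used here, so depth, and with it the counting error, is unknown.

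A single limma 3.58.1 fit (R 4.3.3) of all samples, with a variance trend, gave the 6 group pairs and the LPS by HI interaction. Its 19 residual degrees of freedom were lowered to 16 because 3 variables had been removed. P-values were adjusted by Benjamini-Hochberg over all genes, and no gene was filtered out. The fit was tested on simulated data. The changes planted there were larger against the spread than those of the members, so changes of the members' size were not covered. Alternatives were 19 degrees of freedom, no variance trend, robust variances, fits of the compared groups alone, a block for replicate number, a block for library series, a filter on the weakest 25% of genes, centring on medians, quantile normalization, an exact Wilcoxon test, and each sample left out in turn.

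The 9 members and all lists were chosen with earlier results of these data known, and lists are described by counts and medians, with no list test. All members are named, and from each list, per comparison described, of the genes that passed, up to 4 with the largest rise and up to 4 with the largest fall; markers, and genes named for a count of 5 or fewer, were chosen after their values were seen. The 3 like genes per member had the highest Pearson r. A few single genes covered by these rules are counted but not reported by name. Promoters were matched by symbol to RefSeq (GRCr8) and motifs searched with Python 3.11.15.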

Additional observations from a re-analysis of the deposited data

Results flagged for a closer look

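In groups of 5 or 6 samples, the gap of an extreme sample to its neighbour was compared with Dixon's 95% critical value for the 36 combinations of member and group, and 3 exceeded it, where chance flags about 1 in 20 groups. Mef2c was 13.05 in Sham replicate 5, above the rest of its group, and 12.97 in NaCl/HI replicate 4, again the highest. The LPS/HI fall of Mef2c did not pass without that Sham sample (adjusted p = 0.0764). Cebpb was 9.66 in LPS/HI replicate 1, the lowest of that group, and its difference between LPS/HI and Sham passed once that sample was left out (adjusted p = 0.0143).

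For 6 genes of the lists the LPS difference itself differed between HI and sham-operated pups in the limma interaction, which 1.08% of all genes passed. These were Runx3 (-0.73, adjusted p = 0.0497), 1 of 26 relatives, and 3 of 32 Spi1 and Irf8 targets. The targets were Fes (-0.35, adjusted p = 0.027), Cyba (-0.42, adjusted p = 0.0316) and Ncf1 (-0.29, adjusted p = 0.0465). Itgal (-0.53, adjusted p = 0.0157), 1 of 9 monocyte markers, passed too, and all of these had a smaller LPS difference after HI. For Flt1 (0.38, adjusted p = 0.0366), 1 of 11 endothelial markers, the LPS difference was -0.20 in sham-operated pups and 0.18 after HI. Leaving out single samples ended the calls of Runx3, of Flt1 and of the targets, all 3 of the targets' without LPS replicate 2 or 4, for example.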

How the results depend on the processing

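Of 13 single-member calls, 5 held in every setting tried: Spi1, Sall1, Mef2a and Cebpb in LPS against Sham and Sall1 in LPS/HI against Sham. Cebpb in LPS against NaCl/HI failed only the exact Wilcoxon test, which called 0 of all 20301 genes there and so could not pass it. The count of members that passed moved as follows, and the causes were not tested. Counts of all genes that passed are given in brackets and moved too. In LPS against Sham the 5 members (3606 genes) became 6 with 19 degrees of freedom (4877) and 4 with only these groups in the fit (2337), and stayed 5 after quantile normalization (3415) with Mef2c in place of Irf8. In LPS/HI against Sham the 2 members (1781) became 4 with 19 degrees of freedom (3094), 1 with only these groups (1024), and 3 with robust variances (1785), the filter (1861) or median centring (1730). In LPS/HI against LPS the 1 member (394) became 0 after quantile normalization (327) and 2 after median centring (602, Spi1 added), and was 0 with only these groups and by the exact Wilcoxon test. In LPS against NaCl/HI the 5 members (1824) became 6 with 19 degrees of freedom (2708), without a variance trend (1823) or with the filter (1980), 4 with a library series block (1741) or median centring (1928), 1 with only these groups (494), and 0 by the exact Wilcoxon test. That test in both of these comparisons, and the fit of only these groups in LPS/HI against LPS, called 0 of all 20301 genes, so these counts of 0 say nothing of the members. The interaction (220) had 1 with 19 degrees of freedom (666) and 1 after median centring (294), Irf8 in both. Median centring changed the split of higher and lower genes from 2072 and 1534 to 2406 and 1128 in LPS against Sham, from 1075 and 706 to 849 and 881 in LPS/HI against Sham, and from 74 and 146 to 48 and 246 in the interaction. With 1 sample left out the counts ranged from 4 to 6 (LPS against Sham), 1 to 4 (LPS/HI against Sham), 0 to 1 (LPS/HI against LPS) and 2 to 6 (LPS against NaCl/HI).

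Same-numbered samples had r from -0.475 to 0.470, and 3 of 23 samples correlated best with their own number. The authors had removed 3 surrogate variables, which could have carried an effect shared by same-numbered samples. Whether such samples were handled together therefore cannot be told from these values. With a replicate block 4 members passed in LPS against Sham (2282 genes), 1 in LPS/HI against Sham (751), 0 in LPS/HI against LPS (89) and 2 in LPS against NaCl/HI (1083), while the interaction went from 220 genes to 2, with 0 of the 6 list genes named for it left. The calls lost under the block were Irf8 in LPS against Sham (adjusted p = 0.0552) and in LPS/HI against LPS (0.0919), Mef2c in LPS/HI against Sham (0.0569), and Spi1, Sall1 and Mef2a in LPS against NaCl/HI.

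Signs turned only where no call was made. After quantile normalization Irf8 was -0.00107 in NaCl/HI against Sham and Maf -0.00325 in LPS against NaCl/HI, and the Mef2c interaction was -1.61e-05 with a library series block and -0.0264 after median centring. With 1 sample left out, NaCl/HI against Sham ranged from -0.0154 to 0.0272 for Spi1 and from -0.0523 to 0.0570 for Cebpb, and LPS/HI against Sham from -0.0289 to 0.0441 for Runx1. Cebpa ranged from -0.00952 to 0.104 in LPS/HI against NaCl/HI, from -0.0447 to 0.0691 in LPS against NaCl/HI and from -0.109 to 0.00495 in the interaction. LPS against NaCl/HI ranged from -0.0546 to 0.00973 for Mef2c and from -0.0139 to 0.0650 for Maf, and the Mef2c interaction from -0.0344 to 0.0453.

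Depth, and with it the counting error, is unknown, and rlog values draw weak genes toward their mean, so differences of weakly expressed list genes are understated. The width of the intervals follows from each gene's spread and from groups of 5 and 6 samples.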
